A study of Mus musculus with 10 samples.

Results

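The transcripts described here belong to 43 genes of glucose metabolism, namely glucose uptake, glycolysis, lactate handling, the pyruvate dehydrogenase complex, glycogen and the pentose phosphate pathway. The choice was by name and pathway, with no measured value in the rule, but earlier results of these data were known when it was made. The arrays held a probe set annotated to a single symbol for 40 of the 43, out of 12394 genes so annotated, and where a gene had several, the brightest on average over the 10 arrays stands for it. Gpi1, Eno1 and G6pdx had no such probe set in the table used and were not analysed here. Of the 40, 36 entered the tests, among 9320 genes. Pgam2, Slc16a3 and Pygm fell below the filter on low signals, and Gapdh was covered by control probe sets alone, so its values are given without a test.

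The RNA came from 5 cell populations of the mouse paw pad, each purified by fluorescence-activated cell sorting and measured on 2 arrays labelled as biological replicates. All animals were wild-type females of the CD1 background, and the labels name no treatment or altered allele for any group. The populations were gland myoepithelial and gland luminal cells (the outer and inner layers of the secretory coil), duct basal and duct suprabasal cells (the outer and inner layers of the straight duct), and palmoplantar epidermis. The labels used here give neither the age of the animals, nor the sorting markers, nor how many animals stood behind an array. P-values therefore measure the spread between these arrays, which may in part be technical, and 2 arrays per population limit the precision of every estimate.

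Glycolysis splits glucose into pyruvate in the cytosol. Pyruvate is then reduced to lactate by lactate dehydrogenase and leaves the cell through monocarboxylate transporters, or is oxidised in mitochondria by the pyruvate dehydrogenase complex, which the pyruvate dehydrogenase kinases switch off. Glycogen is the stored form of glucose, and the pentose phosphate pathway turns glucose 6-phosphate into ribose and NADPH. Most steps are catalysed by alternative isoforms from different genes, and cell types differ in the isoform they use. Sweat glands are known to draw on glucose and glycogen for secretion and to release lactate into sweat.

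Population markers were brightest in the populations named for them. The summed signal of 5 luminal markers (Krt8, Krt18, Krt19, Aqp5 and Cldn7) was 64882 and 78018 on the luminal arrays, and that of 5 myoepithelial markers (Acta2, Myh11, Cnn1, Tagln and Mylk) was 112213 and 165192 on the myoepithelial arrays, against at most 3430.1 elsewhere. The luminal sum was also 17633 on myoepithelial array 1 against 7853 on array 2, and 35171 on duct suprabasal array 1 against 15938 on array 2. It was 6800 and 4466 in duct basal and 610 and 834 in epidermal cells. Of the 36 genes tested, 28 were brighter on myoepithelial array 1 than on array 2, 29 on duct suprabasal array 1 and 27 on duct basal array 1, in each case the array with the higher luminal sum. In luminal cells and in epidermis 14 were brighter on array 1. The signal of the Gapdh control probe set at the 3' end divided by that at the 5' end, a measure of how complete the RNA was, lay between 0.872 and 0.895 in luminal, 0.853 and 0.964 in epidermal, 1.07 and 1.47 in duct suprabasal, and 1.83 and 1.86 in duct basal cells. It was 1.30 on myoepithelial array 1 and 2.68 on array 2. The same ratio for beta-actin ordered the arrays differently and was highest on duct basal array 1, at 7.79, with 4.88 on array 2. This beta-actin ratio was 3.49 and 6.52 in myoepithelial and 2.44 and 3.60 in luminal cells. In duct suprabasal cells it was 4.87 and 5.47, and in epidermal cells 3.30 and 2.51. Fibroblast, endothelial and adipocyte markers were brightest on duct suprabasal array 2, with summed signals of 86062, 22246 and 23329, most of the last from Fabp4 (22499), with Adipoq at 679.9. Immune markers summed to 4112 and 5933 in myoepithelial cells and to at most 1374 elsewhere. The part of these differences in the results below was not tested.

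**Figure D1:**
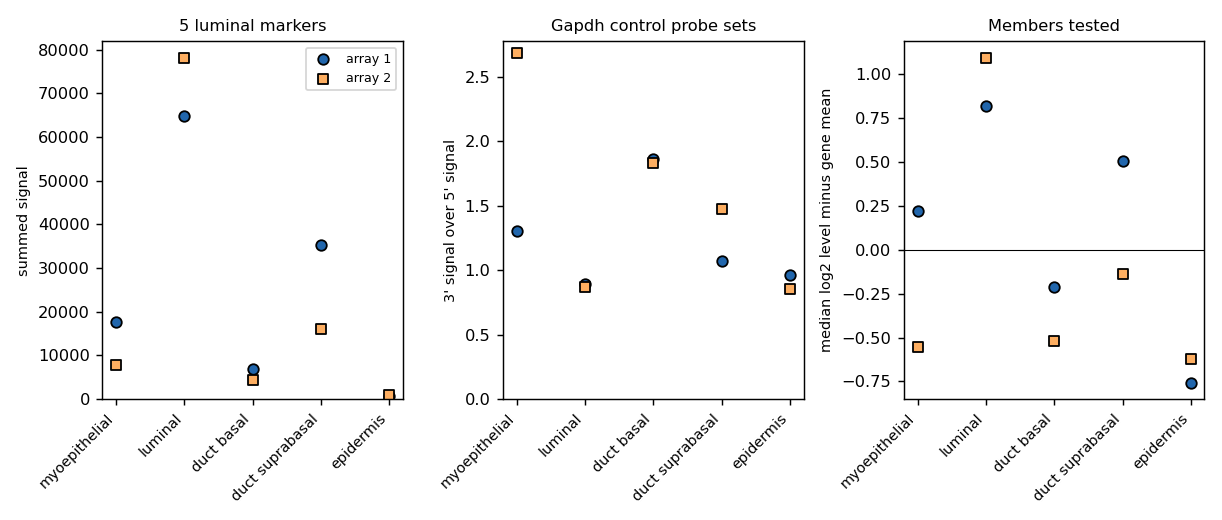
Array by array, the panels plot the summed signal of 5 luminal markers, the ratio of the 3' to the 5' control probe set of Gapdh, and the median over the 36 genes tested of the log2 level minus the gene's mean over all arrays. Each point is 1 array (circle, array 1, and square, array 2). The median log2 level was 0.82 and 1.09 on the luminal arrays, 0.50 and -0.14 on the duct suprabasal and 0.22 and -0.55 on the myoepithelial arrays, with array 1 of the last 2 populations above array 2.

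Transcripts of glucose metabolism differed among the populations and were for the most part brightest in luminal cells. Luminal cells had the highest mean signal for 26 of the 36 genes tested, myoepithelial cells for 4, epidermis for 3, duct basal cells for 2 and duct suprabasal cells for 1. Over all 9320 genes, luminal cells had the highest mean for 22.0%. The lowest mean lay in epidermis for 18 of the 36, against 39.0% of all genes. When all populations were tested together by limma's F statistic, 32 of 36 had an adjusted p under 0.05, against 65.7% of all genes tested. The exceptions were Slc2a3, Hk2, Pdhb and Gys1. In bulk RNA of a sorted population, fewer cells with a transcript and less transcript per cell cannot be told apart.

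**Figure D2:**
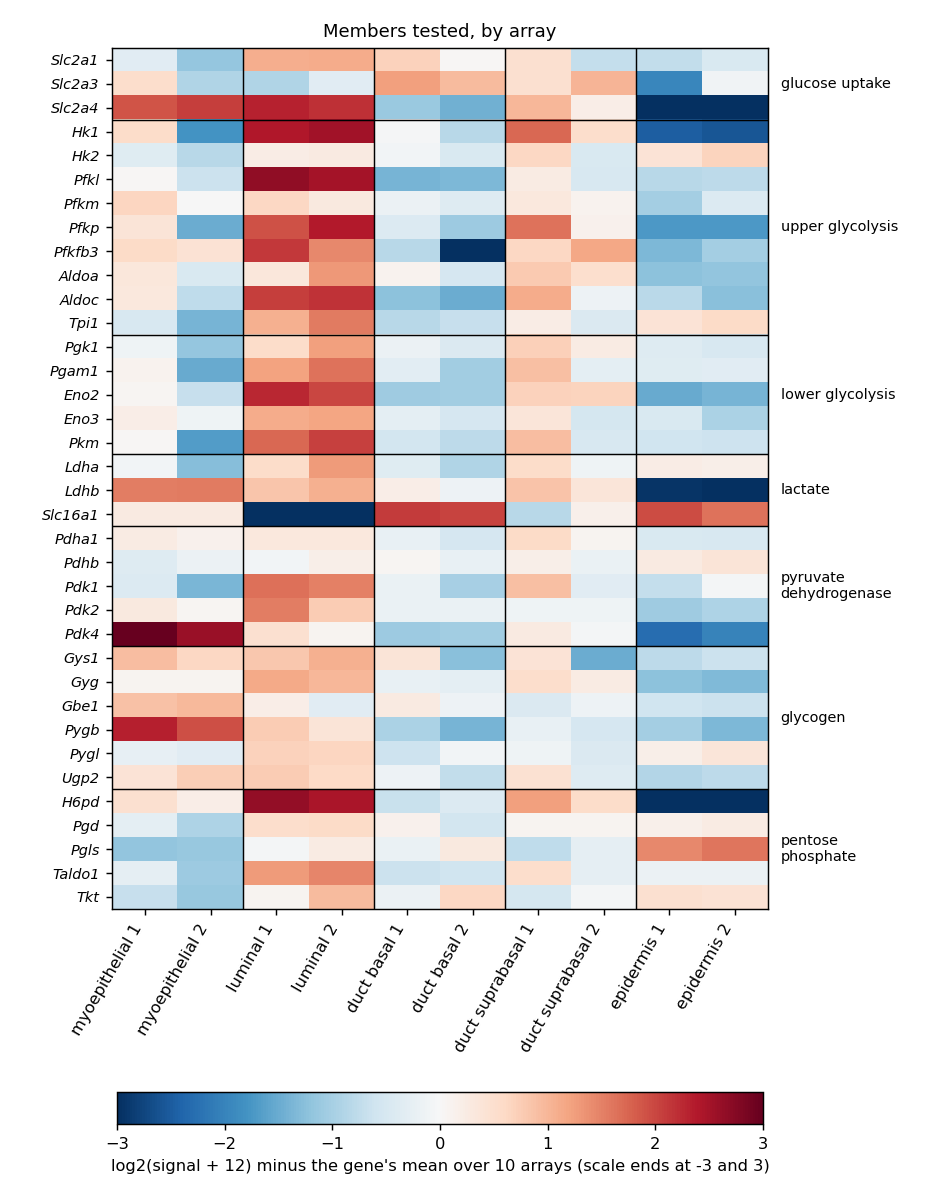
The colours give log2(signal + 12) minus the gene's mean over the 10 arrays for each of the 36 genes tested (rows, by pathway) on each array (columns). The luminal columns are red for most rows, Slc16a1 is blue there, and Slc2a4, Ldhb and H6pd are at their lowest in epidermis.

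Glucose enters cells through transporters of the Slc2a family. In this and the following paragraphs the signals of a population are given for array 1 and then array 2, on the linear scale of the arrays, and differences are on the scale of log2(signal + 12). Slc2a1, the basal glucose transporter GLUT1, had signals of 5852 and 3340.5 in myoepithelial, 15736 and 16156 in luminal, 11935 and 7568 in duct basal, 10443 and 4508 in duct suprabasal, and 4477 and 5429 in epidermal cells. Both luminal arrays stood above all others, and Slc2a1 was 3.60-fold lower in myoepithelial than in luminal cells (log2 difference -1.85, SE 0.41, adjusted p = 0.00840), a call that ended without myoepithelial array 2 (adjusted p = 0.0715). Slc2a4, the insulin-responsive transporter GLUT4, had signals of 2812 and 3214 in myoepithelial, 3744 and 3455 in luminal, 340 and 269.5 in duct basal, 1503 and 855 in duct suprabasal, and 44.2 and 63.2 in epidermal cells. It was high in both layers of the gland, intermediate in the inner duct and low in duct basal and epidermal cells, with no overlap between these 3 levels. Slc2a4 was 9.59-fold higher in myoepithelial than in duct basal cells (log2 difference 3.26, SE 0.28, adjusted p = 6.93e-05) and 4.84-fold higher in duct basal cells than in epidermis (log2 difference 2.28, SE 0.28, adjusted p = 0.000419). It was lower in duct basal than in duct suprabasal cells (-1.86) and higher in luminal than in duct suprabasal cells (1.65). Between myoepithelial and luminal cells its difference was -0.26, with a 95% confidence interval from -0.89 to 0.38. Fat and skeletal muscle also express Slc2a4. Of 5 adipocyte markers with a probe set 2 passed the filter. Fabp4 had signals of 739 and 1209.7 in myoepithelial, 187 and 826 in luminal, 1559.5 and 455 in duct basal, 3417 and 22499 in duct suprabasal, and 12.4 and 4.0 in epidermal cells, and Adipoq had 15.2 and 3.5 in myoepithelial, 6.2 and 19.8 in luminal, 33.3 and 15.7 in duct basal, 144 and 679.9 in duct suprabasal, and 2.9 and 9.4 in epidermal cells. Of 11 skeletal muscle markers 6 fell below the filter, Ckm and the fast myosin heavy chains among them. Myoglobin (Mb), also a muscle transcript, had signals of 392 and 471 in myoepithelial cells and at most 81.5 elsewhere. Of the 5 skeletal muscle markers tested, 1 was called higher and 0 lower in myoepithelial than in luminal cells, at a median log2 difference of 0.25. Against duct basal cells 2 were higher and 0 lower. The part of fat and muscle RNA in the Slc2a4 signal was not tested. Slc2a3, the neuronal and leukocyte transporter GLUT3, was dim, at 60.9 and 15.2 in myoepithelial, 14.8 and 28.2 in luminal, 107 and 85.8 in duct basal, 58.1 and 89.9 in duct suprabasal, and 0.9 and 34.8 in epidermal cells, and lay above the filter on 4 arrays. It was called higher in duct basal cells than in epidermis (log2 difference 2.14, SE 0.67, adjusted p = 0.0362), where array 1 had a signal of 0.9, and 1 of its other probe sets had the opposite sign. Its next brightest probe set (mean signal 42.6, above the filter on 5 arrays) gave a log2 difference of 0.20 in that comparison.

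Hexokinase, phosphofructokinase and aldolase start glycolysis, and each is encoded by several genes. Hk1, the broadly expressed hexokinase, had signals of 4256 and 824 in myoepithelial, 15520.3 and 16649 in luminal, 2822 and 1626 in duct basal, 9667 and 4175 in duct suprabasal, and 511 and 483 in epidermal cells. The luminal arrays were the brightest, the epidermal arrays the dimmest, and myoepithelial array 1 stood well above array 2. Hk1 was 8.52-fold lower in myoepithelial than in luminal cells (log2 difference -3.09, SE 0.66, adjusted p = 0.00742) and higher in duct basal cells than in epidermis (log2 difference 2.08, SE 0.66, adjusted p = 0.0371). The second call ended under 9 of 21 alternatives, among them quantile normalization and leaving out either duct basal or either epidermal array. Hk2, the inducible hexokinase of muscle and growing tissue, had signals of 302 and 215 in myoepithelial, 459.7 and 475 in luminal, 368 and 282 in duct basal, 606 and 281 in duct suprabasal, and 525 and 631 in epidermal cells and passed in none of the 5 comparisons. Its epidermal arrays stood above its luminal arrays, unlike those of Hk1. The log2 ratio of Hk1 to Hk2 within an array was 5.04 and 5.10 in luminal and -0.04 and -0.38 in epidermal cells. Such a ratio shows unequal change and gives no order of the 2 levels.

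Phosphofructokinase makes the committed step. Pfkl, its liver-type subunit, had signals of 740 and 455 in myoepithelial, 4648 and 4120.2 in luminal, 268 and 277 in duct basal, 858 and 514 in duct suprabasal, and 400.5 and 415 in epidermal cells. Both luminal arrays stood far above all others. Pfkl was lower in myoepithelial than in luminal cells (log2 difference -2.89, SE 0.29, adjusted p = 0.000201) and higher in luminal than in duct suprabasal cells (log2 difference 2.70, SE 0.29, adjusted p = 0.000985). In duct basal cells it was below both duct suprabasal (-1.25) and myoepithelial cells (1.06, myoepithelial minus duct basal), and each of these calls ended without duct basal array 1 or array 2, among other alternatives. Pfkp, the platelet-type subunit, had signals of 6718 and 1821 in myoepithelial, 19270.5 and 26822 in luminal, 3819.6 and 2375 in duct basal, 15806 and 5570.4 in duct suprabasal, and 1536 and 1538 in epidermal cells. Its arrays differed by over 2-fold within the myoepithelial and duct suprabasal populations, and it was called only between myoepithelial and luminal cells (log2 difference -2.69, SE 0.61, adjusted p = 0.00970) among the 5 comparisons. That call ended without myoepithelial array 2 or luminal array 2. Pfkm, the muscle-type subunit, lay between 176 and 586 on all arrays and passed in none. Pfkfb3, whose product makes the allosteric activator of phosphofructokinase, had signals of 191 and 169 in myoepithelial, 576 and 355 in luminal, 64.2 and 3.3 in duct basal, 196 and 289 in duct suprabasal, and 40.7 and 54.2 in epidermal cells. It was lower in duct basal than in duct suprabasal cells (log2 difference -2.87, SE 0.63, adjusted p = 0.0177) and higher in myoepithelial than in duct basal cells (log2 difference 2.49, SE 0.63, adjusted p = 0.0203), where duct basal array 2 stood at 3.3. Both calls ended without that array, and with the mean over probe sets. The other probe set (mean signal 16.6, above the filter on 0 arrays) had the opposite sign in both.

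Aldolase splits the hexose and triose phosphate isomerase converts its products into each other. Aldoa, the main aldolase, had signals of 26236 and 15079 in myoepithelial, 26296 and 50859 in luminal, 22263 and 14686 in duct basal, 35489.9 and 29165 in duct suprabasal, and 8891 and 9152 in epidermal cells. It was bright everywhere and passed in none of the 5 comparisons. Aldoc, the aldolase best known from brain, had signals of 2207 and 1034 in myoepithelial, 7502 and 7922 in luminal, 737 and 622 in duct basal, 3792 and 1576 in duct suprabasal, and 1006 and 735 in epidermal cells. Luminal cells were the brightest, with Aldoc lower in myoepithelial than in luminal cells (log2 difference -2.34, SE 0.43, adjusted p = 0.00393), lower in duct basal than in duct suprabasal cells (log2 difference -1.84, SE 0.43, adjusted p = 0.0225) and higher in luminal than in duct suprabasal cells (1.65). The last of these calls ended under 9 of 21 alternatives, and the one between the duct layers without either duct basal array, without duct suprabasal array 1 or with only the arrays compared. Tpi1, the triose phosphate isomerase, had signals of 6119 and 3242 in myoepithelial, 17933 and 25287 in luminal, 4762 and 5322 in duct basal, 10013 and 6336 in duct suprabasal, and 11300 and 12730.4 in epidermal cells. Here epidermis followed luminal cells: Tpi1 was lower in duct basal cells than in epidermis (log2 difference -1.25, SE 0.33, adjusted p = 0.0175), a call that ended without either array of those populations, and lower in myoepithelial than in luminal cells (log2 difference -2.25, SE 0.33, adjusted p = 0.00140).

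The second stage of glycolysis, from glyceraldehyde phosphate to pyruvate, yields ATP. Gapdh had signals of 17341 and 11143 in myoepithelial, 21059 and 36787 in luminal, 17152 and 14459 in duct basal, 23607 and 19620 in duct suprabasal, and 10179 and 10919 in epidermal cells on its 3' control probe set, with both epidermal arrays below the 8 others and no test made. On its 5' control probe set the epidermal arrays had 10558 and 12797. There they stood above myoepithelial array 2 (4155) and both duct basal arrays (9212 and 7893), and below the others. Pgk1, phosphoglycerate kinase, had signals of 12487 and 6102 in myoepithelial, 19807 and 31857 in luminal, 12091 and 10076 in duct basal, 22435 and 16054 in duct suprabasal, and 10416 and 9771 in epidermal cells. Pgam1, the phosphoglycerate mutase of most tissues, had signals of 7692 and 2479 in myoepithelial, 16382 and 21856 in luminal, 5728 and 3450 in duct basal, 13258 and 5799.5 in duct suprabasal, and 5508 and 5643 in epidermal cells. Both had their highest mean in luminal cells and were lowest on myoepithelial array 2. For Pgk1, duct suprabasal array 1 stood above luminal array 1. Pgk1 (log2 difference -1.52, SE 0.35, adjusted p = 0.0107) and Pgam1 (log2 difference -2.11, SE 0.53, adjusted p = 0.0155) were lower in myoepithelial than in luminal cells, and both calls ended without myoepithelial array 2 or luminal array 2, that of Pgam1 also without luminal array 1. The muscle mutase Pgam2 lay between 2.4 and 16.4 on all arrays, below the filter.

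Enolase and pyruvate kinase complete the pathway. Eno2, the neuronal enolase, had signals of 25.3 and 10.3 in myoepithelial, 161 and 133 in luminal, 5.2 and 5.6 in duct basal, 46.3 and 45.6 in duct suprabasal, and 0.7 and 1.7 in epidermal cells. It lay above the filter on the 2 luminal arrays alone, so a difference from them was built into its being tested (log2 difference -2.45, SE 0.43, adjusted p = 0.00297, myoepithelial minus luminal). Eno3, the muscle enolase, had signals of 180.1 and 142 in myoepithelial, 348 and 368 in luminal, 124 and 107 in duct basal, 204 and 104 in duct suprabasal, and 110.5 and 74.6 in epidermal cells. It was also brightest in luminal cells (log2 difference -1.11, SE 0.34, adjusted p = 0.0371), but this call ended without filtering, and without either array of the myoepithelial, luminal or duct basal population. Pkm, the pyruvate kinase of most tissues outside the liver, had signals of 3756 and 1150.1 in myoepithelial, 12160.4 and 15251 in luminal, 2530 and 2123 in duct basal, 6985 and 2638 in duct suprabasal, and 2454 and 2414 in epidermal cells. It was 6.51-fold lower in myoepithelial than in luminal cells (log2 difference -2.70, SE 0.54, adjusted p = 0.00560), past the threshold under every alternative, and the 2 luminal arrays stood above the 8 others.

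Lactate dehydrogenase has an A subunit (Ldha), which favours lactate formation, and a B subunit (Ldhb), common in oxidative tissue, and their transcripts had different patterns. Ldha had signals of 15613 and 6887 in myoepithelial, 24154 and 40571 in luminal, 12912 and 8900.3 in duct basal, 24167 and 15084 in duct suprabasal, and 19386 and 18704 in epidermal cells. Luminal array 2 was the brightest, luminal array 1 and duct suprabasal array 1 were nearly equal, and Ldha was lower in myoepithelial than in luminal cells (log2 difference -1.59, SE 0.42, adjusted p = 0.0179), a call that ended without myoepithelial array 2, without luminal array 2 or with only the arrays compared. Ldhb had signals of 3026 and 3090.2 in myoepithelial, 1866 and 2192 in luminal, 1199.6 and 926 in duct basal, 1881 and 1328 in duct suprabasal, and 125 and 93.1 in epidermal cells. Ldhb was highest in myoepithelial cells and lowest in epidermis, with no overlap between either and the other populations. It was 2.88-fold higher in myoepithelial than in duct basal cells (log2 difference 1.53, SE 0.24, adjusted p = 0.00188) and 8.88-fold higher in duct basal cells than in epidermis (log2 difference 3.15, SE 0.24, adjusted p = 5.02e-05), and both calls held under every alternative. Within an array the log2 ratio of Ldha to Ldhb was 2.36 and 1.15 in myoepithelial cells, between 3.25 and 4.20 in luminal, duct basal and duct suprabasal cells, and 7.14 and 7.48 in epidermis.

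Slc16a1 encodes the monocarboxylate transporter MCT1, which carries lactate and pyruvate across the plasma membrane, and was the 1 gene of the 36 with its lowest mean in luminal cells. Its signals were 854 and 858 in myoepithelial, 24.4 and 64.5 in luminal, 3092 and 2959.6 in duct basal, 397 and 786 in duct suprabasal, and 2789.5 and 2221 in epidermal cells. Duct basal and epidermal cells were bright, myoepithelial and duct suprabasal cells intermediate and luminal cells dim, with no overlap between these 3 levels. Slc16a1 was 16.4-fold higher in myoepithelial than in luminal cells (log2 difference 4.04, SE 0.38, adjusted p = 0.000158) and 5.32-fold higher in duct basal than in duct suprabasal cells (log2 difference 2.41, SE 0.38, adjusted p = 0.00483). It was lower in luminal than in duct suprabasal cells (log2 difference -3.44, SE 0.38, adjusted p = 0.00105) and lower in myoepithelial than in duct basal cells (log2 difference -1.81, SE 0.38, adjusted p = 0.00894). Between duct basal cells and epidermis the difference was 0.28, with a 95% confidence interval from -0.58 to 1.14. The luminal-to-suprabasal call ended with only the arrays compared in the fit (adjusted p = 0.0705) and the myoepithelial-to-basal call without duct basal array 2 (adjusted p = 0.0511). Slc16a3, the lactate exporter MCT4, lay between 3.7 and 47.6 on all arrays, below the filter.

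**Figure D3:**
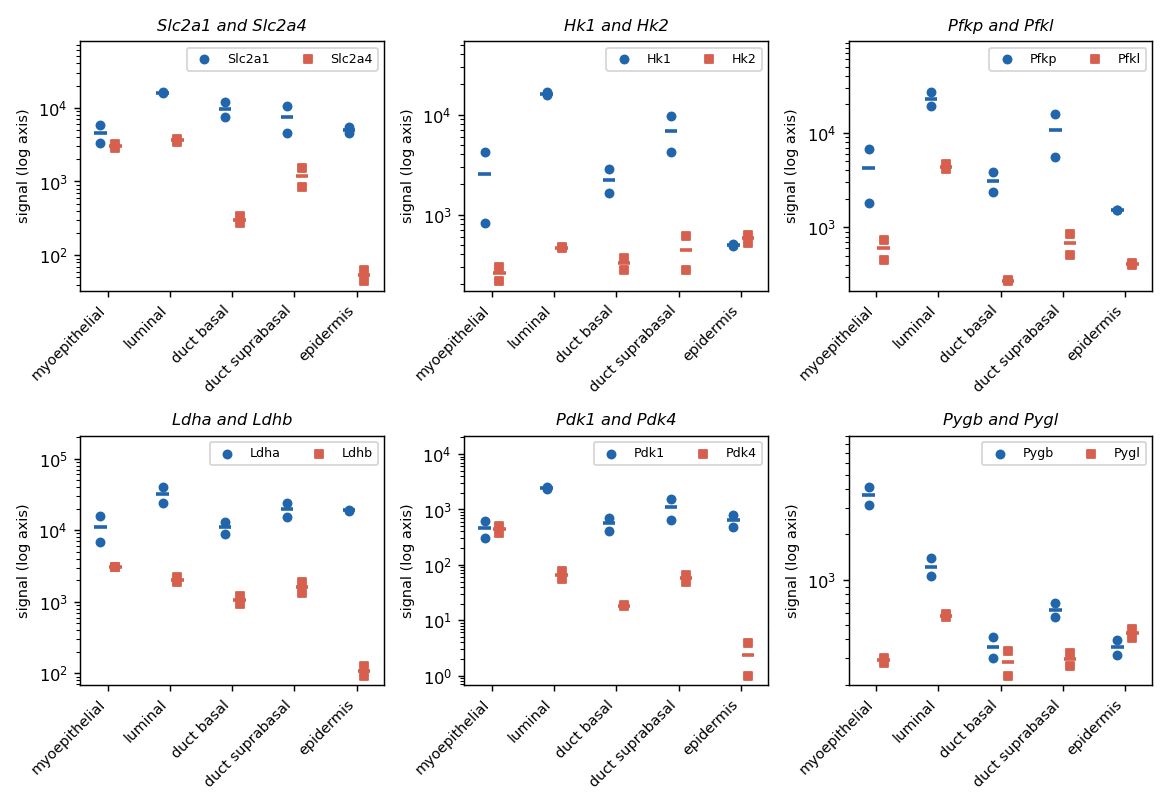
Each panel plots the signal (log axis) of 2 genes of 1 step in the 5 populations, with a point per array and a bar at the mean of the 2 arrays. Signals of different probe sets are not comparable in level, so only the pattern across populations can be read: Slc2a4 and Ldhb fall to at most 63.2 and 125 in epidermis, and Pygb and Pdk4 are highest in myoepithelial cells.

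Promoter sequences of 41 of the 43 genes stood in the RefSeq table (build GRCm38.p6), in 57 windows of 250 bases before a transcript start, since a gene can have several starts. They were searched on both strands for ACGTG, a core that hypoxia-inducible factors and Myc-type factors can bind, so that the palindrome CACGTG counts once on each strand. Of the 57 windows 20 held it (35.1%), against 16.6% of 32851 windows of all genes. Among the genes called lower in myoepithelial than in luminal cells 6 of 26 windows held it (23.1%), among those called higher 2 of 4, and among those not called 10 of 18 (55.6%). Windows of a gene can overlap, and 1 Aldoa site was counted in 2 of them. A match is a description of the sequence and no binding was measured. The windows of the lactate genes Ldha, Ldhb and Slc16a1, whose transcripts had different patterns, and of Pgk1 follow 5' to 3' with each match in capitals. Pgk1 is a glycolytic gene that, like Ldha, had its highest mean in luminal cells. The windows lie at chr7:46845554-46845803, plus strand (Ldha), chrX:106186850-106187099, plus strand (Pgk1), chr3:104638414-104638663, plus strand (Slc16a1) and chr6:142507958-142508207, minus strand (Ldhb). The Ldha window had 5 matches, 4 of them from 2 CACGTG palindromes, while a second Ldha window had 0. The Pgk1 window had 2, the Slc16a1 window 2 from 1 palindrome, and the Ldhb window 0. Windows of Hk1, Pfkl, Pfkp, Aldoc, Tpi1, Taldo1 and Pdk1, like Pgk1 called lower in myoepithelial than in luminal cells, had 0.
Ldha: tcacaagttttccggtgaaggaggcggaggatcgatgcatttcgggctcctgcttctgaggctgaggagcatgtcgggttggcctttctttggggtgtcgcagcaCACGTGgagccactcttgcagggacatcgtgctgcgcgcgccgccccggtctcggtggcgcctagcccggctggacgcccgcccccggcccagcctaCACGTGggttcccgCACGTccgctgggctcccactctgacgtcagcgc
Pgk1: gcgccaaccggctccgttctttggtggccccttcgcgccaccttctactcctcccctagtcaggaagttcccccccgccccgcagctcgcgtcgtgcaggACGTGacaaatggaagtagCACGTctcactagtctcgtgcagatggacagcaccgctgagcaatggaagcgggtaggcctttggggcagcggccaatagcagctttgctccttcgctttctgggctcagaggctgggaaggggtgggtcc
Slc16a1: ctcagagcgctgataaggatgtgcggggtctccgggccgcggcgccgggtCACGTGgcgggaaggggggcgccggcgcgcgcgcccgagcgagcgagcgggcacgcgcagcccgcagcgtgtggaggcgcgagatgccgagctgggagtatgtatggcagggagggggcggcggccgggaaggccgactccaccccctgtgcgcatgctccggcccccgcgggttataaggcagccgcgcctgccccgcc
Ldhb: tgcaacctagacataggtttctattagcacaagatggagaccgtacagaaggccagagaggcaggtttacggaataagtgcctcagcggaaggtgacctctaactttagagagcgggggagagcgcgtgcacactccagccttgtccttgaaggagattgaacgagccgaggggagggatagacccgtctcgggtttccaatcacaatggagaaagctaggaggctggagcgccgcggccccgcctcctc

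The pyruvate dehydrogenase complex admits pyruvate to mitochondrial oxidation. Pdha1 and Pdhb, which encode the subunits of its first enzyme, varied little. Pdhb lay between 2207 and 3771 on all arrays and passed in none of the 5 comparisons, and Pdha1 lay between 1577 and 3315. Pdha1 was lower in duct basal than in duct suprabasal cells (log2 difference -0.69, SE 0.20, adjusted p = 0.0433), but another probe set had the opposite sign and the call ended under 14 of 21 alternatives. The inhibitory kinases spanned wider ranges. Pdk1, the kinase known as a hypoxia target, had signals of 612 and 311 in myoepithelial, 2584 and 2366 in luminal, 716 and 407 in duct basal, 1536 and 649 in duct suprabasal, and 490 and 789.9 in epidermal cells. It was 5.53-fold lower in myoepithelial than in luminal cells (log2 difference -2.47, SE 0.47, adjusted p = 0.00436). Pdk4, the kinase known to rise in fasting and fatty acid use, had signals of 509 and 369 in myoepithelial, 76.0 and 55.3 in luminal, 17.9 and 18.8 in duct basal, 64.3 and 49.1 in duct suprabasal, and 1.0 and 3.8 in epidermal cells. The 2 myoepithelial arrays stood far above all others and the epidermal arrays were near the bottom of the scale. Pdk4 was 5.79-fold higher in myoepithelial than in luminal cells (log2 difference 2.53, SE 0.36, adjusted p = 0.00121) and 14.7-fold higher than in duct basal cells (log2 difference 3.88, SE 0.36, adjusted p = 0.000103), under every alternative. Pdk4 lay above the filter on 5 arrays, and its call in duct basal cells over epidermis (1.08) ended under 15 of 21 alternatives, a pseudocount of 47 among them. Pdk2, a widely expressed kinase, had signals of 75.7 and 63.2 in myoepithelial, 195 and 110.2 in luminal, 50.8 and 50.4 in duct basal, 53.1 and 53.5 in duct suprabasal, and 22.4 and 25.6 in epidermal cells. It was called higher in luminal than in duct suprabasal cells (log2 difference 1.28, SE 0.35, adjusted p = 0.0408), which ended under 15 of 20 alternatives.

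Glycogen is made from UDP-glucose on the primer glycogenin and broken down by phosphorylase. Phosphorylase transcripts divided by isoform. Pygb, the brain-type phosphorylase, had signals of 4162 and 3149 in myoepithelial, 1388 and 1059 in luminal, 414 and 302 in duct basal, 694 and 566 in duct suprabasal, and 396 and 314 in epidermal cells. Both myoepithelial arrays were above both luminal arrays, which were above all others. Pygb was 9.92-fold higher in myoepithelial than in duct basal cells (log2 difference 3.31, SE 0.25, adjusted p = 3.97e-05) and 2.97-fold higher than in luminal cells (log2 difference 1.57, SE 0.25, adjusted p = 0.00200), under every alternative. Pygl, the liver-type phosphorylase, had signals of 303 and 281 in myoepithelial, 588 and 566 in luminal, 229.8 and 338 in duct basal, 326 and 265 in duct suprabasal, and 411 and 468 in epidermal cells. It went the other way between the gland layers (log2 difference -0.96, SE 0.24, adjusted p = 0.0148), a call that ended without luminal array 1, luminal array 2 or myoepithelial array 2. Within an array the log2 ratio of Pygb to Pygl was 3.73 and 3.43 in myoepithelial cells and between -0.56 and 1.22 on the 8 other arrays. The muscle phosphorylase Pygm lay between 3.2 and 40.5 and was not tested.

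Genes of glycogen synthesis were also measured. Gbe1, the branching enzyme, had signals of 308 and 326 in myoepithelial, 186 and 125 in luminal, 197 and 144 in duct basal, 117 and 144 in duct suprabasal, and 102 and 99.7 in epidermal cells. It was higher in myoepithelial than in luminal cells (log2 difference 1.0, adjusted p = 0.0257), a call that ended without either myoepithelial array or without luminal array 2. Gyg, which encodes glycogenin, had signals of 363 and 367 in myoepithelial, 768 and 701 in luminal, 292 and 280.4 in duct basal, 498 and 411 in duct suprabasal, and 141 and 129 in epidermal cells. It was highest in luminal cells (log2 difference -0.98, SE 0.20, adjusted p = 0.00614) and 2.03-fold higher in duct basal cells than in epidermis (log2 difference 1.02, SE 0.20, adjusted p = 0.00470). The first of these calls ended without luminal array 1 (adjusted p = 0.0533) and the second with quantile normalization (adjusted p = 0.0536). Ugp2, which makes UDP-glucose, had signals of 3343 and 4139 in myoepithelial, 4251 and 3759 in luminal, 2239.9 and 1482 in duct basal, 3423 and 1915 in duct suprabasal, and 1347 and 1436 in epidermal cells, and was higher in myoepithelial than in duct basal cells (log2 difference 1.02, SE 0.29, adjusted p = 0.0325), a call that ended under 8 of 21 alternatives. Gys1, the glycogen synthase of most tissues, lay between 29.2 and 228 and passed in none of the 5 comparisons, with its arrays over 2-fold apart in both duct populations.

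The pentose phosphate pathway begins with an oxidative branch, which yields NADPH, and goes on to the sugar exchanges of transketolase and transaldolase. H6pd, the first enzyme of its version in the endoplasmic reticulum, had signals of 185 and 151 in myoepithelial, 868 and 768 in luminal, 76.6 and 95.1 in duct basal, 318 and 196 in duct suprabasal, and 2.2 and 4.1 in epidermal cells. Luminal cells stood at 818 ± 70.5 (SD, n = 2) and epidermis at 3.15 ± 1.34 (SD, n = 2). H6pd was 4.63-fold lower in myoepithelial than in luminal cells (log2 difference -2.21, SE 0.31, adjusted p = 0.00108) and higher in duct basal cells than in epidermis (log2 difference 2.69, SE 0.31, adjusted p = 0.000289). The second difference ranged from 1.40 to 4.42 over the alternatives, and the epidermal signals lie under the pseudocount of 12. Pgls, the lactonase, had signals of 789 and 809.5 in myoepithelial, 1725 and 2144 in luminal, 1573 and 2206 in duct basal, 1049 and 1475 in duct suprabasal, and 4888 and 5515 in epidermal cells. Epidermis was the brightest and myoepithelial cells the dimmest. Pgls was lower in duct basal cells than in epidermis (log2 difference -1.47, SE 0.23, adjusted p = 0.00162), and lower in myoepithelial than in luminal (-1.25) and duct basal cells (-1.21), all 3 under every alternative.

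Taldo1, transaldolase, had signals of 4944 and 2769.8 in myoepithelial, 14406 and 16378 in luminal, 3776 and 3905 in duct basal, 8590.1 and 4955 in duct suprabasal, and 5261 and 5242 in epidermal cells. It was 4.14-fold lower in myoepithelial than in luminal cells (log2 difference -2.05, SE 0.31, adjusted p = 0.00156) and its luminal arrays stood above the 8 others. Tkt, transketolase, had signals of 7678 and 5690.5 in myoepithelial, 13216 and 23876 in luminal, 11080 and 19113 in duct basal, 8638 and 11917 in duct suprabasal, and 17411 and 16853 in epidermal cells. Its arrays overlapped among luminal, duct basal and epidermal cells, and it was lower in myoepithelial than in luminal cells (log2 difference -1.42, SE 0.35, adjusted p = 0.0131), a call that ended without myoepithelial array 2 or luminal array 2. Pgd, the NADPH-forming dehydrogenase of the branch in the cytosol, had signals of 1810.4 and 1150.3 in myoepithelial, 3169.7 and 3272 in luminal, 2410.2 and 1511 in duct basal, 2342 and 2331 in duct suprabasal, and 2462 and 2618 in epidermal cells. It was lower in myoepithelial than in luminal cells (log2 difference -1.15, SE 0.26, adjusted p = 0.0101), and this ended without luminal array 1, luminal array 2 or myoepithelial array 2.

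The outer and inner layers of the secretory coil were compared to see how the contractile and the secretory cells differ. Luminal cells had more transcript of most glycolytic genes tested and of the pentose phosphate genes, and myoepithelial cells had more of Slc16a1, Pdk4, Pygb and Gbe1. Of the 36 genes 20 were lower in myoepithelial cells, against 14.5% of all genes, and 4 were higher, against 16.5%. In lower glycolysis 5 of 5 were lower in myoepithelial cells, in upper glycolysis 5 of 9, in the pentose phosphate group 5 of 5, and in the glycogen group 2 were lower and 2 higher of 6. The median log2 difference was -1.13, and 0.08 over all genes. A gene that passes the filter only through the population where it is bright had to differ. Eno2, counted in lower glycolysis, is such a gene, above the filter on the 2 luminal arrays alone. Of the 28 genes above the filter on all 10 arrays, 18 were lower and 2 higher, against 16.0% and 15.6% of the 6294 genes that were so. Of the 24 calls 13 held under every alternative in which the gene was tested, Eno2 under 20 and the others under 21. The count of 20 fell to 11 without myoepithelial array 2 and to 12 without luminal array 2. Beside it stand the luminal markers on the myoepithelial arrays, the 7 of 7 immune markers called higher in myoepithelial cells and the Gapdh ratio of 2.68 on myoepithelial array 2. Their part was not tested.

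**Figure D4:**
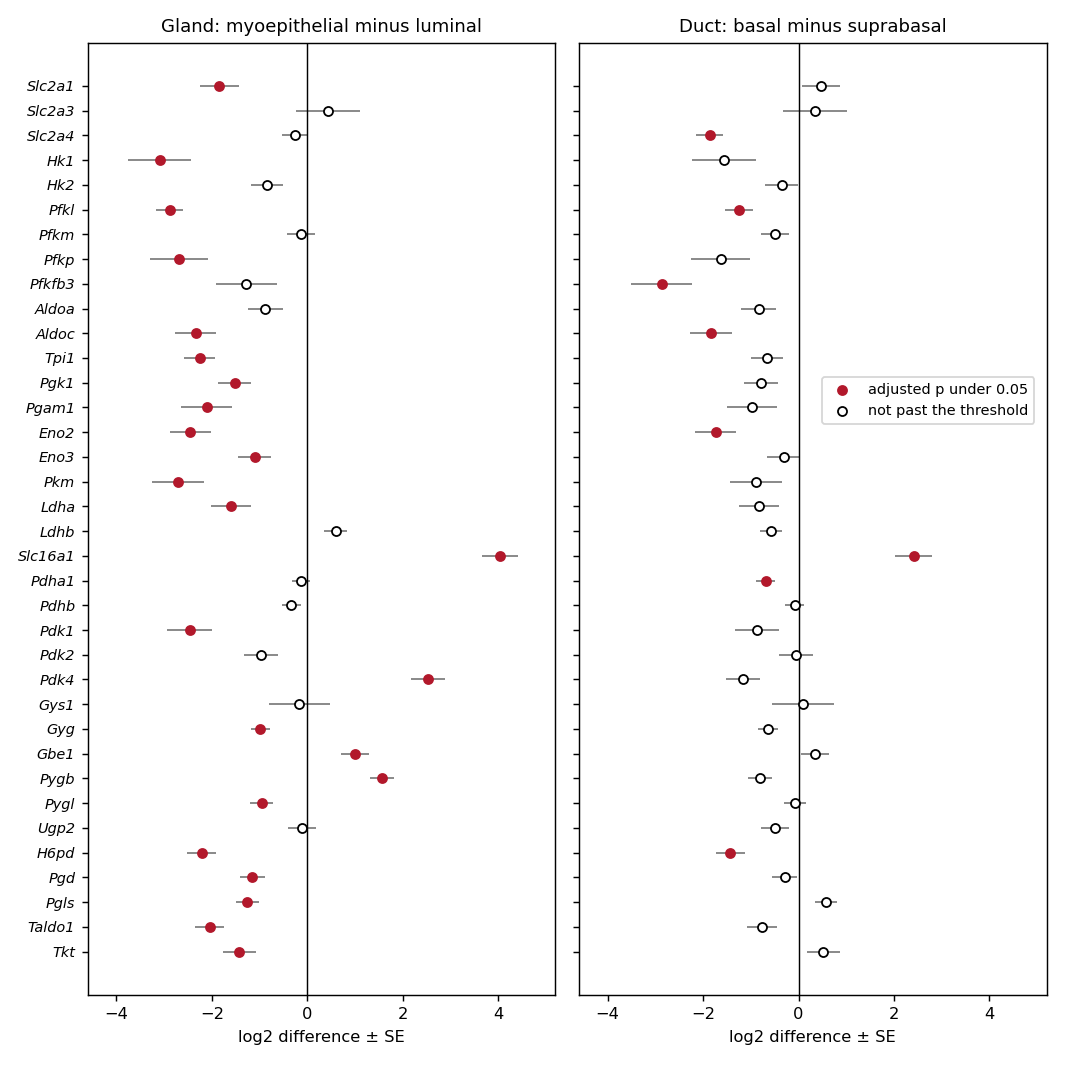
Points give the log2 difference between the outer and the inner layer with its standard error (bars, SE), in the gland (left) and the duct (right), for the 36 genes tested, and filled points have an adjusted p under 0.05. In the gland 20 filled points lie left of zero, on the luminal side, and 4 right of it. In the duct 7 lie left and 1, Slc16a1, right.

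The same layers were compared in the duct. Suprabasal cells had more Slc2a4, Pfkl, Pfkfb3, Aldoc, Eno2, Pdha1 and H6pd transcript, and basal cells more Slc16a1. Thus 7 of 36 were lower in duct basal cells, against 8.39% of all genes, and 1 was higher, against 7.97%. The median was -0.68 against -0.02 over all genes. Of the genes called lower, Eno2 lay below the filter on every duct array, and another probe set of Pdha1 had the opposite sign. Among the 28 genes above the filter on all arrays 4 were lower and 0 higher, against 5.88% and 7.99% of the 6294 such genes. The count of 7 depended on single arrays: it was 2 without duct basal array 1 or without duct suprabasal array 1, 1 without duct basal array 2, 14 without duct suprabasal array 2 and 0 with only the 4 arrays compared, where 95 of all genes were lower. Slc16a1 passed under every alternative. The count on its side was 2 without duct suprabasal array 2. On duct suprabasal array 1 the luminal marker sum was 35171, against 15938 on array 2. Markers of other cells were also lower in duct basal than in duct suprabasal cells, 8 of 8 endothelial, 2 of 2 adipocyte and 3 of 6 fibroblast markers tested, with endothelial sums of 4055 and 22246 in suprabasal cells and at most 664 elsewhere. Their part in the counts was not tested.

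The outer layers of coil and duct, myoepithelial against duct basal, were compared next. Slc2a4, Pfkl, Pfkfb3, Ldhb, Pdk4, Pygb and Ugp2 were higher in myoepithelial cells, 7 of 36, and Slc16a1, Pgls and Tkt were lower. These 10 compare with 24.3% of all genes called in either direction, 1119 higher and 1142 lower, and their share, 27.8%, is near it. The median was 0.18, against 0.02 over all genes, and of the 28 genes above the filter on all arrays 5 were higher and 2 lower, against 703 and 757 of the 6294 such genes. The higher count was 4 without myoepithelial array 1 or duct basal array 2 and 11 without either duct suprabasal array. The lower count was 1 without duct basal array 2. Slc2a4, Ldhb, Pdk4, Pygb and Pgls held under every alternative.

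Between luminal and duct suprabasal cells, the inner layers, 10 of 36 were higher in luminal cells, against 4.95% of all genes, and 1, Slc16a1, was lower, against 10.2%. The 10 were Slc2a4, Pfkl, Aldoc, Tpi1, Eno3, Pdk2, Pygb, Pygl, H6pd and Taldo1. The median was 0.92, against -0.06 over all genes, and of the 28 genes above the filter on all arrays 8 were higher and 0 lower, against 6.43% and 6.91% of the 6294 such genes. This comparison depended on single arrays. The count of 10 was 16 without duct suprabasal array 1, 3 without duct suprabasal array 2 and 4 without either epidermal array. Leaving out the first luminal array gave 1, and the second 2. It was 0 with only the 4 arrays compared, where 2 of all genes were higher. None of the 11 calls held under every alternative.

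Duct basal cells, the outer layer of the duct, were set against palmoplantar epidermis. Epidermal differentiation markers summed to 6755 and 18845 in duct basal cells and to 70383 and 70707 in epidermis. A difference of layer and one of tissue cannot be told apart here. Slc2a3, Slc2a4, Hk1, Ldhb, Pdk4, Gyg and H6pd were higher in duct basal cells, 7 of 36, against 23.0% of all genes, and Tpi1 and Pgls were lower, against 11.0%. The share of 7 in 36 is near that of all genes. The median over all genes was 0.24 here and 0.01 with quantile normalization, and the median of the 36 was 0.20. With quantile normalization 3 genes were higher (Slc2a4, Ldhb and H6pd) and 3 lower, against 1510 and 1125 of all genes, where the deposited scaling gave 2145 and 1023. The higher count was 4 without duct basal array 1, duct basal array 2 or epidermis array 1. The lower count was 1 without either epidermal array and 5 with only the 4 arrays compared. Slc2a4, Ldhb, H6pd and Pgls held under every alternative.

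Whether the layers differed by the same amount in gland and duct was tested as a difference of the 2 layer differences. Of the 36 genes 9 passed, against 16.0% of all genes. Slc2a4, Ldhb, Pdk4 and Pygb were more on the outer side in the gland than in the duct, against 10.0% of all genes, and Slc2a1, Pfkl, Tpi1, Pgls and Tkt more on the inner side, against 5.94%. The first share, 11.1% of the 36, is near that of all genes, and the second was 13.9%. For Slc2a4 the difference of outer minus inner layer was -0.26 in the gland and -1.86 in the duct. Pdk4 had the largest value (3.70, SE 0.51, adjusted p = 0.00239), followed by Pygb (2.37, SE 0.36, adjusted p = 0.00356). Pdk4, Pygb and Pgls held under every alternative. With quantile normalization the split over all genes moved from 935 and 554 to 787 and 761, while that of the 36 stayed at 4 and 5. The count of 5 was between 1 and 8 and the count of 4 between 2 and 5 when single arrays were left out. The lower count was 1 without duct basal array 2, myoepithelial array 2, luminal array 2 or either epidermal array, 2 without duct basal array 1 or luminal array 1, and 8 without myoepithelial array 1 or duct suprabasal array 1. The higher count was 2 without either myoepithelial array, luminal array 1 or duct basal array 2.

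Other genes of these pathways, listed by pathway, were measured beside the 36. There were 38 such genes tested, and the alternatives were not run for them. In myoepithelial against luminal cells 13 were lower and 4 higher, against 14.5% and 16.5% of all genes, with a median of -0.20. In duct basal against duct suprabasal cells 3 were lower and 0 higher (8.39% and 7.97% of all genes), in luminal against duct suprabasal cells 5 were higher and 0 lower (4.95% and 10.2%), and in duct basal cells against epidermis 9 were higher and 1 lower (23.0% and 11.0%). In myoepithelial against duct basal cells 7 were higher and 2 lower, with 24.3% of all genes called in either direction. Those that differed at least 4-fold between the gland layers included Fbp1 and Fbp2, at -3.66 (SE 0.71, adjusted p = 0.00489) and -3.97 (SE 0.76, adjusted p = 0.00468). They encode fructose bisphosphatases, which oppose phosphofructokinase. Fbp1 had signals of 4442 and 914 in myoepithelial, 19826 and 33146 in luminal, 2172 and 1692 in duct basal, 10182 and 5039 in duct suprabasal, and 40.2 and 7.5 in epidermal cells. Slc5a1, the sodium-coupled glucose transporter (-3.91, SE 0.65, adjusted p = 0.00232), Galm, which interconverts the forms of free hexose (-2.63), Bpgm (-2.0), Pdk3, a further pyruvate dehydrogenase kinase (-2.06), and Rbks, ribokinase (-2.12), were also lower in myoepithelial cells. The myoepithelial arrays of Slc5a1 lay far apart, at 387.5 and 57.1, against 2362.9 and 2623.5 in luminal cells. Slc16a7, the monocarboxylate transporter MCT2, was higher in myoepithelial than in luminal cells (3.57, SE 0.59, adjusted p = 0.00239), as was Stbd1, a glycogen-binding protein (2.22, SE 0.37, adjusted p = 0.00230). Slc16a7 lay above the filter on the 2 myoepithelial arrays alone (214.8 and 178.4), so a difference from them was built into its being tested.

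In the glycogen list, Ppp1r3c differed by at least 4-fold in 3 comparisons. It encodes a subunit that directs protein phosphatase to glycogen. Ppp1r3c had signals of 1909.5 and 1626 in myoepithelial, 4382 and 4453 in luminal, 462 and 173 in duct basal, 2993 and 1379.5 in duct suprabasal, and 3.9 and 3.3 in epidermal cells. It was high in the gland and in duct suprabasal cells and lowest in epidermis, was 2.58 (SE 0.45, adjusted p = 0.00328) in myoepithelial over duct basal cells and 4.25 (SE 0.45, adjusted p = 0.000186) in duct basal cells over epidermis, and was lower in duct basal than in duct suprabasal cells, -2.79 (SE 0.45, adjusted p = 0.00495). Phkb, a subunit of phosphorylase kinase, was higher in myoepithelial than in duct basal cells (2.26, SE 0.48, adjusted p = 0.00949). At least 4-fold in the other comparisons were also Slc2a8 (2.04) and Slc16a7 (2.25), higher in myoepithelial than in duct basal cells, and Fbp2, lower (-2.75). Slc16a7 entered the tests through its myoepithelial arrays alone, and Fbp2 had a signal of 2.9 on myoepithelial array 2. Higher in duct basal cells than in epidermis were Fbp1 (5.92, SE 0.71, adjusted p = 0.000364), G6pc3, a glucose 6-phosphatase (2.70), and Pck2, the mitochondrial phosphoenolpyruvate carboxykinase (2.11).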

How the data were processed

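The deposited values were signal intensity on a linear scale, made with MAS5 per the submitters' processing notes, with no version given. On every array the mean was 500 once the top and bottom 2% of probe sets were trimmed. RNA was isolated with Trizol and labelled as biotin cRNA by the Affymetrix procedure, per the labels' protocols. Of 22690 probe sets 64 were controls, which were not tested. The brightest probe set of each gene was kept. A pseudocount of 12, near the 20th percentile of all signals, was added before log2. Genes entered the fit if they exceeded that array's 40th percentile on 2 or more arrays. The fit, in limma 3.58.1 (R 4.3.3), held all 10 arrays in their 5 populations, with a variance trend on signal and 5 residual degrees of freedom. Benjamini-Hochberg adjustment ran over the 9320 genes of each comparison, and called means an adjusted p under 0.05. Comparisons with a population in common use the same arrays of it. The code was tested on simulated data.

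The platform annotation named a single symbol for 20393 probe sets and more for 691. Of the first, 20364 had Entrez identifiers in a RefSeq table (GRCm38.p6), which changed 0 symbols. Genes are described array by array if called with a difference of at least 2-fold in 1 of the 5 comparisons, or as the other isoform of such a gene, and other pathway genes are named from 4-fold. The members and lists were chosen with earlier results of these data known. The alternatives were other pseudocounts (1 and 47), quantile normalization, the filter dropped or raised to the 60th percentile, a mean over probe sets, no variance trend, only the arrays compared, a replicate block, each array left out, and myoepithelial array 1 left out with either duct suprabasal array. The last of these, with duct suprabasal array 1, was chosen after seeing the data.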

Additional observations from a re-analysis of the deposited data

Results flagged for a closer look

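The layer difference of the gland and that of the duct differed for 9 of the 36 genes in the limma test of the difference itself. The values below are the gland's log2 difference of outer minus inner layer minus that of the duct. Pdk4 had 3.70 (SE 0.51, adjusted p = 0.00239), with the gland at 2.53 and the duct at -1.17. Pygb had 2.37 (SE 0.36, adjusted p = 0.00356), with 1.57 and -0.80. For Slc2a4 the value was 1.61 (SE 0.40, adjusted p = 0.0260), with -0.26 in the gland and -1.86 in the duct, and for Ldhb 1.17 (SE 0.33, adjusted p = 0.0432), with 0.59 and -0.58. On the inner side, Slc2a1 had -2.32 (SE 0.58, adjusted p = 0.0261), with -1.85 and 0.47, and Tkt -1.94 (SE 0.49, adjusted p = 0.0273), with -1.42 and 0.52. Pgls stood at -1.83 (SE 0.33, adjusted p = 0.00762), with -1.25 and 0.58, Pfkl at -1.64 (SE 0.41, adjusted p = 0.0260), with -2.89 and -1.25, and Tpi1 at -1.59 (SE 0.47, adjusted p = 0.0473), with -2.25 and -0.66. Over the alternatives the highest adjusted p was 0.0132 for Pdk4, 0.0183 for Pygb and 0.0364 for Pgls, and it was above the threshold for the 6 others, between 0.0902 for Pfkl and 0.155 for Tpi1.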

How the results depend on the processing

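There were 21 alternatives, and under the 60th percentile filter 67 of the 71 calls of single genes could be tested (Slc2a3, Pdk2 and both calls of Eno2 could not). None of the 71 changed sign and 26 passed under every alternative in which the gene was tested, 13 of 24 between the gland layers, 1 of 8 between the duct layers, 5 of 10 between the outer layers, 0 of 11 between the inner layers, 4 of 9 between duct basal cells and epidermis and 3 of 9 for the difference between layer differences. Leaving out each array in turn gave between 23 and 34 genes in the F test. The higher and lower counts then ran from 3 to 5 and from 11 to 21 between the gland layers (myoepithelial against luminal), from 1 to 2 and from 1 to 14 between the duct layers (basal against suprabasal), from 4 to 11 and from 1 to 4 for myoepithelial against duct basal, from 1 to 16 and at 1 throughout for luminal against duct suprabasal, from 4 to 8 and from 1 to 3 for duct basal cells against epidermis, and from 2 to 5 and from 1 to 8 for the layer differences. Quantile normalization left 3 genes higher in duct basal cells than in epidermis. The mean over probe sets left 2 genes with a positive difference of layer differences.

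With only the arrays compared, the genes lower in duct basal than in duct suprabasal cells numbered 0, those higher and lower in luminal than in duct suprabasal cells 0 and 0 (2 and 34 of all genes), those lower in duct basal cells than in epidermis 5, and the negative layer differences 1. Without myoepithelial array 1 and duct suprabasal array 2, 19 genes were lower in duct basal than in duct suprabasal cells, 6 lower in myoepithelial than in duct basal cells, 5 lower in duct basal cells than in epidermis, and 8 layer differences were negative. Without myoepithelial array 1 and duct suprabasal array 1, a choice made after seeing the data, 2 were higher and 4 lower in duct basal than in duct suprabasal cells, 6 lower in myoepithelial than in duct basal cells, 18 higher in luminal than in duct suprabasal cells, 6 lower in duct basal cells than in epidermis, and 15 layer differences were negative. The causes were not tested beyond the fewer arrays in these fits.

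The labels do not say that a replicate number marks a shared animal or day. Of 10 correlations of same-numbered deviations, the 6 among gland and duct populations were above 0.1, from 0.121 to 0.357, and the 4 with epidermis were below, from 0.026 to 0.088. With 2 numbers per population this is a hint from the data, and the fit without pairing was kept. With a replicate block 2 genes were higher in duct basal than in duct suprabasal cells, and the 71 calls were kept. With 2 arrays per population, and dim genes near the pseudocount, small differences could not be resolved, and other probe sets of called genes had the opposite sign in 4 of 46 comparisons, in 3 of 16 genes.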

Other observations

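Regulators of these pathways and hypoxia-responsive genes outside them were measured on the same arrays. Hif1a, the oxygen-regulated factor, had signals of 13787 and 8079.5 in myoepithelial, 21001 and 27179 in luminal, 11329.8 and 7029 in duct basal, 23007 and 8643 in duct suprabasal, and 8343 and 8870.3 in epidermal cells. Hif1a passed in none of the 5 comparisons. Egln3, a prolyl hydroxylase that marks that factor for destruction and is itself induced by it, had signals of 343 and 211 in myoepithelial, 1227 and 1374 in luminal, 128 and 171 in duct basal, 507 and 367 in duct suprabasal, and 1785 and 1319 in epidermal cells. It was bright in luminal and epidermal cells, lower in myoepithelial than in luminal cells (-2.22, SE 0.29, adjusted p = 0.000832) and lower in duct basal cells than in epidermis (-3.27, SE 0.29, adjusted p = 8.63e-05). Of 7 hypoxia-responsive genes tested outside the pathways, 4 were lower and 1 was higher in the myoepithelial layer of the gland, against 14.5% and 16.5% of all genes, at a median log2 difference of -1.25. Ndrg1 was among the lower ones (-2.57, SE 0.46, adjusted p = 0.00331).

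Myc is a growth-promoting factor with known glycolytic targets. Its signals were 184 and 190.2 in myoepithelial, 45.5 and 67.6 in luminal, 1169 and 3059 in duct basal, 490 and 446 in duct suprabasal, and 612 and 585 in epidermal cells. Luminal cells were the dimmest and duct basal cells the brightest. Myc was lower in myoepithelial than in duct basal cells (-3.26, SE 0.39, adjusted p = 0.000441) and lower in luminal than in duct suprabasal cells (-2.83, SE 0.39, adjusted p = 0.00304). Epas1, a relative of Hif1a known from endothelium, was higher in myoepithelial than in duct basal cells (2.27, SE 0.60, adjusted p = 0.0238), and Mycn was higher in duct basal cells than in epidermis (2.04, SE 0.68, adjusted p = 0.0451), with signals of 23.1 on duct basal array 2 and 78.3 on array 1. Over the 12 regulators tested, 1 was higher and 2 were lower in myoepithelial than in luminal cells, a share near that of all genes.

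Of the other marker lists, the nerve and Schwann cell list was brightest in luminal cells, at a summed signal of 11650.3 and 11899.6, nearly all of it S100b (10928 and 10711), whose signals in epidermis were 26 and 37.6. Red blood cell markers summed to at most 108 on any array. Epidermal differentiation markers summed to 70383 and 70707 in epidermis and to at most 18845 elsewhere, basal keratinocyte markers to 80062.5 and 82686 in duct basal cells, and 3 sodium channel subunits of duct absorption to 1659 and 1267 in duct suprabasal cells and 1075 and 1388 in luminal cells.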
